A study of Homo sapiens with 18 samples.

Results

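The 39 genes described here make up the main DNA repair and damage signalling machinery of human cells: the BRCA proteins and their partners, the factors that sense and trim broken ends, the strand exchange factors, the end-joining proteins, the Fanconi anemia proteins, the damage kinases, and 3 genes of mismatch and excision repair. They were chosen by symbol, with earlier results of these data known, and all 39 were found among the 34912 genes measured by RNA sequencing. Reads came from LNCaP, a human prostate cancer cell line that carries the androgen receptor and responds to androgen. Cells of every group were first kept for 48 h in medium with 5% charcoal-stripped serum, which is poor in steroids. They carried a control siRNA, an siRNA against KLF5 (siKLF5) or an siRNA against NFYA (siNFYA), and were then given 10 nM R1881, a synthetic androgen, or the vehicle, 96% ethanol, for 24 h. Each of the 6 groups has 3 samples in the labels. The siKLF5 vehicle replicate 1 was not analysed here, which leaves n = 2 in that group and 17 libraries of 18 samples. NFYA is the subunit of the factor NF-Y that lets it bind CCAAT sequences, and KLF5 is a zinc-finger transcription factor. Every group, controls included, was transfected and kept without steroid before treatment, and all libraries come from the same line.

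Broken DNA is repaired along several routes. Homologous recombination copies the lost sequence from the sister chromatid: MRE11, RAD50 and NBN hold the ends, RBBP8 and EXO1 trim them, and BRCA2, PALB2 and the strand exchange factors prepare the exposed strand to pair with its copy. End joining ligates the ends directly, with the Ku pair XRCC5 and XRCC6, the kinase PRKDC and the ligase LIG4 with XRCC4. The Fanconi anemia proteins deal with strands linked to each other, and ATM, ATR, CHEK1 and CHEK2 pass the damage signal to the cell cycle. Many recombination and Fanconi genes are transcribed mostly in S and G2 phase, whereas the Ku genes are active throughout the cycle.

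Library totals ran from 4416653 to 6872421 estimated counts, and all 39 genes passed the filter on low counts in both tables. NFYA itself was lower with siNFYA in vehicle by 0.62 on the log2 scale (adjusted p = 4.06e-07) and KLF5 was lower with siKLF5 under R1881 (log2 −1.15, adjusted p = 0.000228). In vehicle, KLF5 stood at 0.929 and 3.02 CPM (counts per 1000000) with siKLF5 and at 4.91, 4.30 and 3.26 CPM in control libraries, and the difference did not pass (adjusted p = 0.149). Mean NFYA levels with control siRNA and siNFYA were 71.0 and 46.0 CPM in vehicle, and 87.1 and 56.2 CPM under R1881. NFYA RNA was thus lowered only in part. All 12 luminal markers passed the filter, with summed levels of 6038 to 6073 CPM in control vehicle and 18797 to 19080 CPM in control R1881 libraries. The filter was passed by 1 of 6 basal, 2 of 8 neuroendocrine, 4 of 9 stromal and 2 of 8 blood and endothelial markers. KRT5, INSM1, CD3E, CDH5 and HBB were at 0 in all libraries. The siNFYA vehicle replicate 3 stood apart: the transcript AC010970.1 took 2.85% of its total, against 0.0902% to 0.424% elsewhere. Nothing in the labels says that the samples of a group were separate cultures, so p-values measure the spread between these samples, which may be technical.

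With R1881, most of the repair genes fell. In control siRNA cells, 30 of the 39 were lower than in vehicle at an adjusted p under 0.05 (edgeR's quasi-likelihood test, Benjamini-Hochberg adjustment over all genes tested), 5 were higher and 4 did not pass. Over all 12601 genes tested, 30.8% were lower and 32.1% higher. The median log2 change was −0.68 for the 39 genes and −0.01 for all genes. A fall of at least 2-fold was seen in 15 of the 39 genes and in 9.31% of all genes. The control and R1881 libraries did not overlap for 36 of the 39, against 67.7% of all genes. As the genes were chosen with earlier results of these data known, these shares describe the set and are no independent test. Fewer cells that express a gene and less of its RNA per cell cannot be told apart in these bulk samples. The share of mitochondrially encoded transcripts moved as well, from 1.77–2.07% in control vehicle to 1.33–1.44% in control R1881 libraries. That of retained-intron transcripts went from 2.15–2.23% to 1.96–1.98%. The part of these shares in the changes was not tested.

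**Figure D1:**
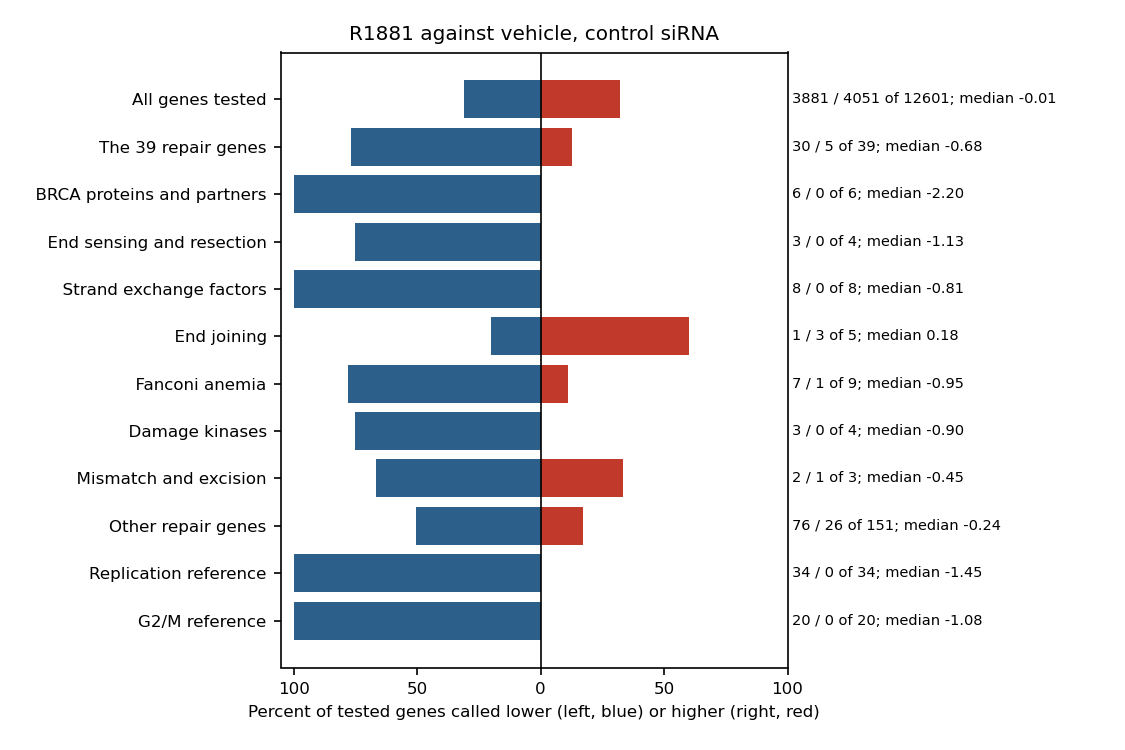
Percent of tested genes called lower (blue, left) or higher (red, right) with R1881 against vehicle in control siRNA cells, by gene group, with the counts and the median log2 change printed at the right. The 39 repair genes have 30 lower and 5 higher, and end joining is the group with more genes higher than lower (3 and 1).

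The 6 BRCA proteins and partners all fell, with a median log2 change of −2.20. BARD1 (chr2:214725646-214809711, minus strand, GRCh38), which pairs with BRCA1 to form a ubiquitin ligase, changed most of the 39 genes. Its level was 314, 328 and 315 CPM in control vehicle and 50.6, 45.9 and 43.7 CPM in control R1881 libraries. Every R1881 library was thus far below every vehicle library, and the fitted level was 6.83-fold lower (log2 −2.77, SE 0.0533, adjusted p = 1.05e-23). BRCA1 (chr17:43044295-43170245, minus strand), the tumour suppressor at the centre of this group, went from 65.1, 64.8 and 61.4 CPM to 15.9, 10.1 and 12.5 CPM. It was 4.98-fold lower (log2 −2.32, SE 0.102, adjusted p = 2.97e-16). BRIP1, the helicase bound to BRCA1, fell from 22.2, 19.9 and 20.3 CPM to 3.77, 4.31 and 3.90 CPM, which is 5.19-fold. BRCA2 (chr13:32315474-32400266), a tumour suppressor central to recombination, was 4.25-fold lower. Its partner PALB2, which links it to BRCA1, was 1.39-fold lower (log2 −0.48, SE 0.127, adjusted p = 0.00219), and RBBP8, which starts end trimming, was 1.83-fold lower.

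Among the genes that hold and trim broken ends, EXO1 and the helicase BLM fell most, NBN changed little and RAD50 did not pass. EXO1 (chr1:241847967-241895148), the exonuclease of long-range resection, stood at 23.5, 27.7 and 22.5 CPM in vehicle and at 2.64, 4.50 and 5.46 CPM with R1881. These groups are far apart, and EXO1 was 5.86-fold lower (log2 −2.55, SE 0.163, adjusted p = 6.24e-13). BLM, the helicase that works with it, was 4.24-fold lower. NBN, which brings ATM to the break, was lower by 0.18 on the log2 scale (adjusted p = 0.00673). RAD50, which tethers the ends, did not pass (adjusted p = 0.982). Its R1881 libraries, at 64.6, 85.1 and 88.7 CPM, lay on both sides of its vehicle libraries at 85.6, 73.5 and 79.0 CPM.

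All 8 strand exchange factors fell, over a wide range of sizes from log2 −0.26 to −2.54. XRCC2 (chr7:152644779-152676165, minus strand), which acts in a complex with RAD51D, was at 28.0, 20.9 and 23.3 CPM in vehicle and at 3.96, 4.13 and 4.29 CPM with R1881. The R1881 libraries were close together and all below the vehicle libraries, and the fold was 5.82 (log2 −2.54, SE 0.175, adjusted p = 3.09e-12). RAD54L, a motor protein that helps the strand find its partner, was 4.84-fold lower. RAD51AP1, which stimulates strand pairing, was 2.73-fold lower. The other members of the group changed less: RAD51B was 1.91-fold, XRCC3 1.60-fold, RAD51D 1.46-fold and RAD51C 1.20-fold lower, and the RAD54-like gene RAD54B was 1.55-fold lower.

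Of the 5 end-joining members, 3 were higher with R1881, the Ku pair only slightly. The 10 further end-joining genes described below had a median log2 change of −0.11. LIG4 (chr13:108207439-108218368, minus strand), the ligase that seals the ends, stood at 23.2, 19.6 and 23.1 CPM in vehicle and at 40.8, 37.7 and 36.9 CPM with R1881. All R1881 libraries were above all vehicle libraries, and LIG4 was 1.74-fold higher (log2 0.80, SE 0.0873, adjusted p = 1.57e-08). XRCC5, the larger Ku protein, had 459, 442 and 446 CPM in vehicle and 521, 497 and 511 CPM with R1881 (log2 0.18, SE 0.0421, adjusted p = 0.000692). XRCC6, the smaller one, had 471, 487 and 469 CPM and then 546, 534 and 550.1 CPM (log2 0.19, SE 0.0327, adjusted p = 2.15e-05). The Ku changes are small, and with library totals in place of TMM scaling both turned slightly negative (log2 −0.06 and −0.05), as the median of all genes then moved to −0.25. With limma on log2(TPM + 1), XRCC6 lost its call (log2 0.02, adjusted p = 0.653). PRKDC, the kinase that Ku recruits, was the member that went against the group: it fell from 353, 356 and 346 CPM to 239, 214 and 229 CPM (log2 −0.63, SE 0.0464, adjusted p = 9.89e-12). XRCC4, the partner of LIG4, had 8.19, 7.60 and 6.82 CPM in vehicle and 5.10, 6.38 and 6.24 CPM with R1881 and did not pass (adjusted p = 0.153).

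**Figure D2:**
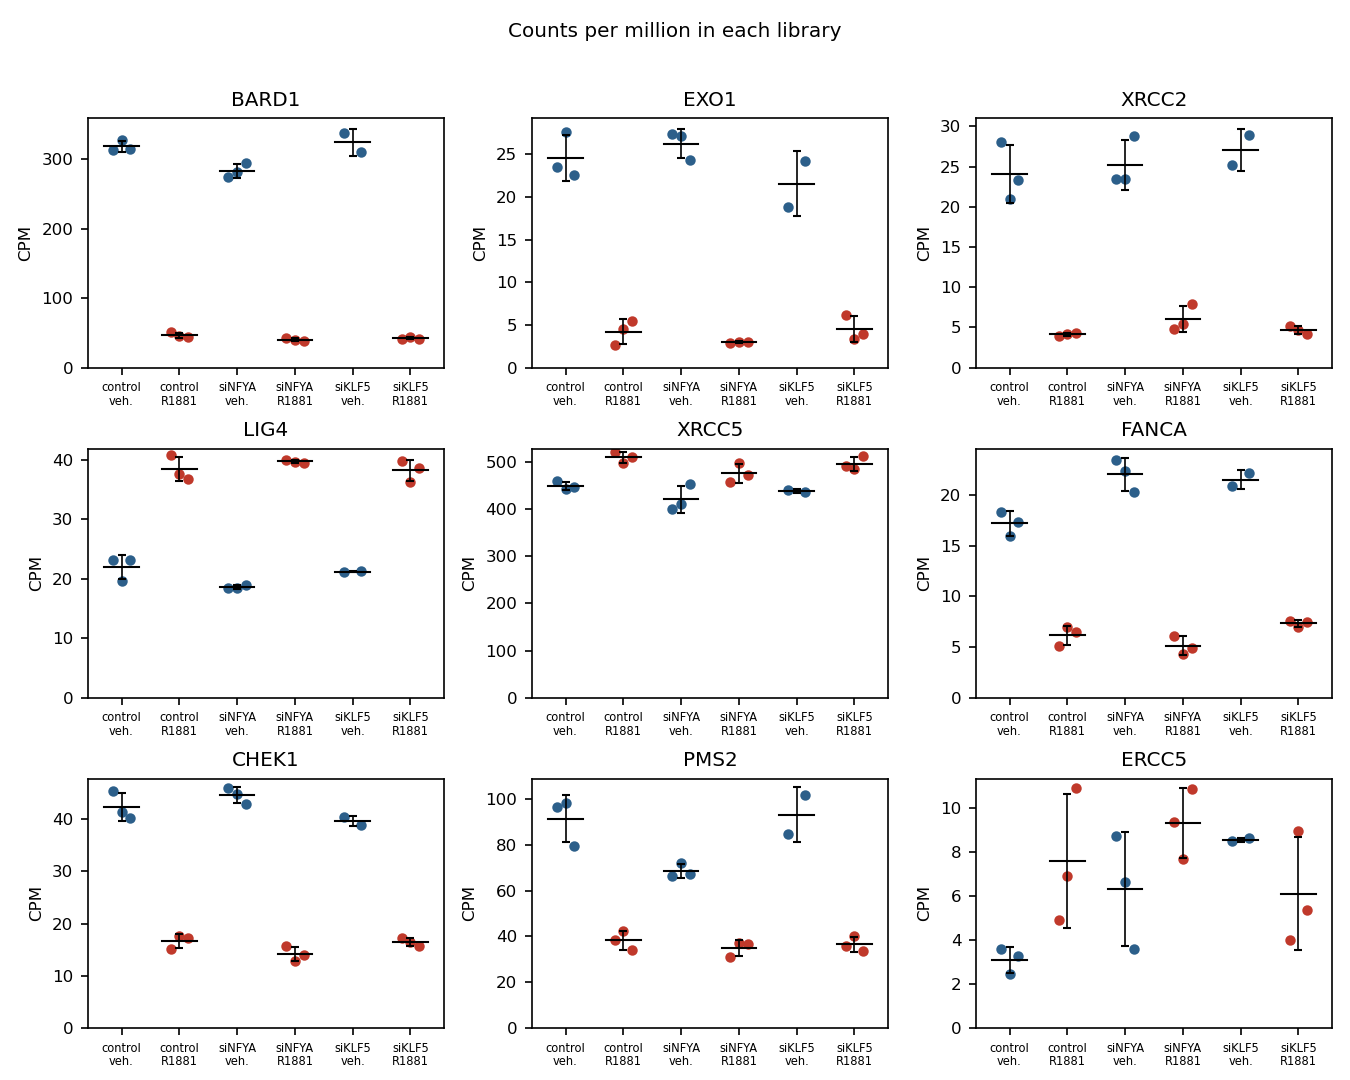
CPM in each library (points; blue, vehicle; red, R1881) for 9 repair genes in the 6 groups, with the group mean and SD in black. In control cells BARD1 drops from 314–328 to 43.7–50.6 CPM with R1881, whereas LIG4 rises from 19.6–23.2 to 36.9–40.8 CPM.

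Of the 9 Fanconi anemia genes, 7 fell, 1 rose and 1 did not pass. FANCA (chr16:89737549-89816657, minus strand), part of the core ubiquitin ligase complex, went from 18.3, 15.9 and 17.3 CPM to 5.10, 6.94 and 6.43 CPM. The groups were well apart, and the fold was 2.79 (log2 −1.48, SE 0.146, adjusted p = 2.73e-09). FANCD2 and FANCI, the pair to which the core complex attaches ubiquitin, changed by almost the same amount as each other, 2.78-fold and 2.74-fold lower. FANCG and FANCL, the latter the ligase subunit, were 1.95-fold and 1.93-fold lower, and FANCC and FANCM were 1.59-fold and 1.58-fold lower. FANCF, an adaptor of the core complex, was the member that rose, from 42.3, 37.7 and 37.5 CPM to 46.2, 43.1 and 52.5 CPM (log2 0.27, SE 0.0796, adjusted p = 0.00532). This call was lost without R1881 replicate 3 (log2 0.19, adjusted p = 0.0609), with library totals in place of TMM scaling (0.03, adjusted p = 0.75) and with limma on log2(TPM + 1) (0.10, adjusted p = 0.475). FANCE had 9.83, 9.32 and 12.0 CPM in vehicle and 10.2, 10.1 and 8.58 CPM with R1881, and did not pass.

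Of the 4 damage kinases, 3 fell. The checkpoint kinase CHEK1, which halts the cycle after replication stress, went from 45.4, 41.4 and 40.3 CPM to 15.1, 17.6 and 17.2 CPM (log2 −1.35, SE 0.0948, adjusted p = 4.13e-12), and CHEK2, its counterpart downstream of ATM, was 2.33-fold lower (log2 −1.22). Of the apical kinases that activate them, ATM was 1.48-fold lower (62.8, 59.6 and 65.1 CPM against 40.6, 43.7 and 42.5 CPM). ATR, the kinase that answers to single-stranded DNA, had 50.8, 55.2 and 50.1 CPM in vehicle and 54.4, 50.6 and 52.6 CPM with R1881. The ATR groups overlapped fully, with a log2 change of 0.01 (SE 0.0712). CHEK2 and FANCD2 have processed or partial copies elsewhere in the genome with which their reads may be shared, so their values are less certain.

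MSH6 and PMS2 serve mismatch repair, and ERCC5 encodes the nuclease XPG of nucleotide excision repair. PMS2 (chr7:5973239-6009125, minus strand) went from 96.5, 98.3 and 79.4 CPM to 38.3, 42.2 and 34.1 CPM (log2 −1.26, SE 0.0869, adjusted p = 3.03e-12). Its copies, PMS2CL among them, are nearly identical to it over several exons, which makes its level uncertain. MSH6 was 1.37-fold lower (log2 −0.45, SE 0.0685). ERCC5 (chr13:102807146-102876001) was higher with R1881, at 4.91, 6.94 and 10.9 CPM against 3.57, 2.44 and 3.26 CPM (log2 1.28, SE 0.298, adjusted p = 0.000604). These are 16.8 to 56.3 estimated counts per library. Most reads over this locus were assigned to the readthrough gene BIVM-ERCC5, which shares the ERCC5 exons, at 34.2, 37.8 and 33.6 CPM in vehicle and 31.9, 30.2 and 28.1 CPM with R1881. BIVM-ERCC5 was slightly lower (log2 −0.23, SE 0.0843, adjusted p = 0.019), so the ERCC5 value depends on how reads were divided between the 2 genes, and on the TPM scale the call was lost (log2 0.26, adjusted p = 0.50).

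**Figure D3:**
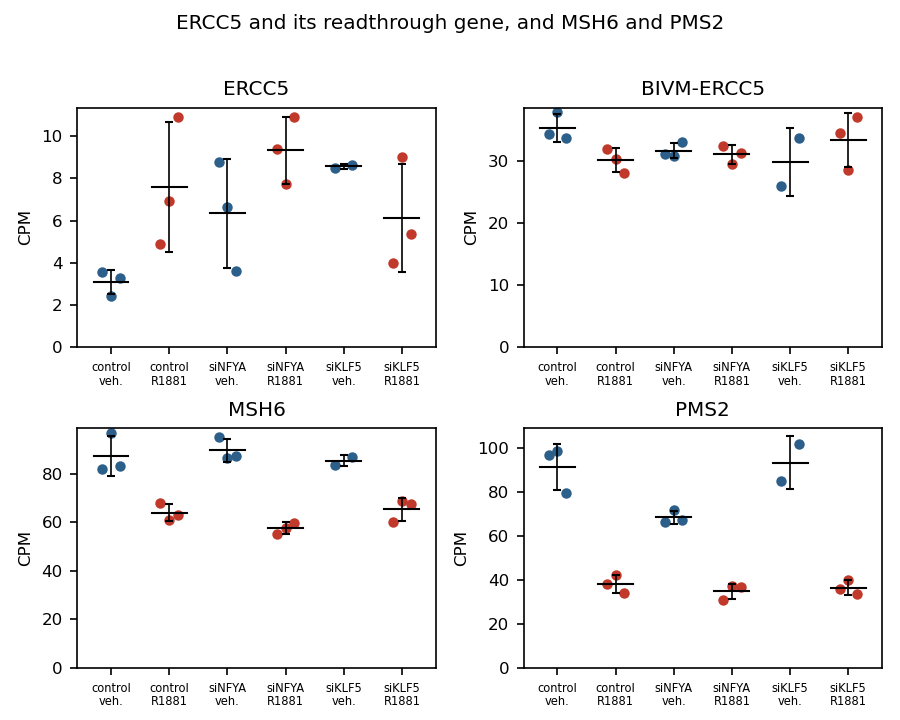
CPM in each library (points; blue, vehicle; red, R1881; black, mean and SD) for ERCC5 and its readthrough gene BIVM-ERCC5, and for the mismatch repair genes MSH6 and PMS2. ERCC5 lies between 2.44 and 10.9 CPM in all libraries, well below BIVM-ERCC5 at 25.9 to 37.8 CPM.

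The rest of the repair genes were taken from 8 lists of 158 genes. Of the 151 that were tested in control cells, 76 were lower and 26 higher with R1881, with a median log2 change of −0.24. Over all genes tested, 30.8% were lower and 32.1% higher, and each list below is to be read beside those shares. In the list of further recombination genes, 21 of 37 fell and 4 rose; DNA2, a nuclease of end resection, was among the most changed (log2 −2.27), as was FIGNL1 (−2.08). Of 28 further checkpoint genes, 18 fell and 4 rose, led by CLSPN (log2 −2.65), the adaptor through which ATR activates CHEK1, and WEE1 (−1.73), the kinase that restrains mitotic entry. Base excision and single-strand break repair had 12 of 23 lower and 5 higher, with the glycosylase NEIL3 at log2 −2.23 and the ligase LIG1 at −1.57. Nucleotide excision repair had 9 of 23 lower and 4 higher, among them the damage sensor DDB2 at −1.79 and its partner DDB1 at 0.68. Translesion and bypass genes had 7 of 13 lower and 4 higher, led by the fork remodeller HLTF at −0.81. Of 13 further Fanconi genes, 7 fell and 2 rose, with FANCB at −1.32 and the DNA-binding subunit CENPX at 1.09. Further end-joining genes had 2 of 10 lower and 1 higher, with the nuclease DCLRE1C (Artemis) at −0.82 and APTX at 0.23. Of 5 further mismatch repair genes, 2 were higher, with MSH3 at 0.23, and 3 did not pass. Lists of replication and of G2/M genes, taken as reference for the cell cycle, had 34 of 34 and 20 of 20 genes lower, with medians of −1.45 and −1.08. All these lists, too, were chosen with earlier results of these data known. The part of a shift in the cell cycle in the fall of the 39 genes was not tested.

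The fall with R1881 was seen under each siRNA. With siNFYA, 29 of the 39 genes were lower and 3 higher with R1881 (all genes, 31% lower and 31.2% higher), with a median log2 change of −0.98 against −0.02 for all genes. A fall of at least 2-fold was seen in 18 genes (all genes, 9.75%), and the libraries did not overlap for 33 (64.5%). With siKLF5, 29 were lower and 3 higher (all genes, 28.4% lower and 30.7% higher), with a median of −0.68 against −0.01. Here 17 genes fell at least 2-fold (all genes, 8.8%), and the libraries did not overlap for 32 (69.3%). In all 3 siRNA groups, 27 genes were lower and 3 were higher, the latter being XRCC5, XRCC6 and LIG4. Of these, LIG4 stayed higher and past the threshold under every alternative run, whereas XRCC5 and XRCC6 were below 0 with library totals in all 3, and XRCC6 then passed as lower with siNFYA (log2 −0.09, adjusted p = 0.0171). The 3 comparisons use separate libraries. BARD1 changed by −2.83 with siNFYA, from 274, 281 and 295 CPM to 42.1, 38.9 and 38.9 CPM. With siKLF5 it changed by −2.94, from 338 and 310.4 CPM to 41.4, 43.8 and 41.5 CPM. EXO1 changed by −3.14 with siNFYA and by −2.25 with siKLF5, RAD54L by −3.07 and −2.13, and BRIP1 by −2.55 and −1.69. LIG4 was 2.13-fold and 1.80-fold higher. FANCF and ERCC5, which were higher in control cells, did not pass under either siRNA: FANCF changed by 0.06 with siNFYA and by −0.06 with siKLF5, and ERCC5 by 0.52 and by −0.47. XRCC4 passed with siKLF5 (log2 −0.62, adjusted p = 0.0213) and in neither other comparison, and lost the call without siKLF5 vehicle replicate 2 or 3 or siKLF5 R1881 replicate 1 or 3, at adjusted p of 0.0526 to 0.121, and with DESeq2 (adjusted p = 0.0898). With library totals it also passed in control cells (−0.59, adjusted p = 0.0157) and with siNFYA (−0.63, adjusted p = 0.0132), and with limma with siNFYA (−0.60, adjusted p = 0.0155). FANCL with siKLF5 lost its call without siKLF5 vehicle replicate 3 (log2 −0.61, adjusted p = 0.0619). RAD50, FANCE and ATR passed in none of the 3 comparisons, but each did under some alternative. With library totals, RAD50 passed as lower in control cells (−0.24, adjusted p = 0.0136) and with siKLF5 (−0.30, adjusted p = 0.00853), ATR in control cells (−0.23, adjusted p = 0.00696), and FANCE with siNFYA (−0.59, adjusted p = 0.00269) and siKLF5 (−0.39, adjusted p = 0.046). With limma, RAD50 passed as lower with siKLF5 (−0.33, adjusted p = 0.033) and FANCE with siNFYA (−0.49, adjusted p = 0.0208). With siNFYA, ATR passed as higher without siNFYA vehicle replicate 3 or siNFYA R1881 replicate 2 (log2 0.21 and 0.23) and in the joint fit (0.17, adjusted p = 0.0481), and FANCE as lower without siNFYA vehicle replicate 1 or siNFYA R1881 replicate 2 (−0.44 and −0.50). ERCC5 passed as higher without siNFYA vehicle replicate 1 (0.81) and without the filter (0.52) and, with siKLF5, as lower without siKLF5 R1881 replicate 2 (−0.88). RAD51B and XRCC4 with siNFYA and RAD54B with siKLF5 also passed as lower without a single library, siNFYA R1881 replicate 1 for RAD51B, siNFYA vehicle or R1881 replicate 2 for XRCC4, and siKLF5 vehicle replicate 2 or R1881 replicate 1 for RAD54B. Library totals also made lower calls of RAD51B with siNFYA (−0.77) and of RAD51C (−0.30), RAD54B (−0.58), FANCF (−0.29) and ERCC5 (−0.70) with siKLF5. Limma ended the lower calls of PALB2, RAD51B and ATM in control cells (adjusted p of 0.0561 to 0.0581) and of ATM with siNFYA (adjusted p = 0.0786). With siKLF5 it ended those of PALB2, RAD51D, XRCC3 and FANCM (adjusted p of 0.113 to 0.753).

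**Figure D4:**
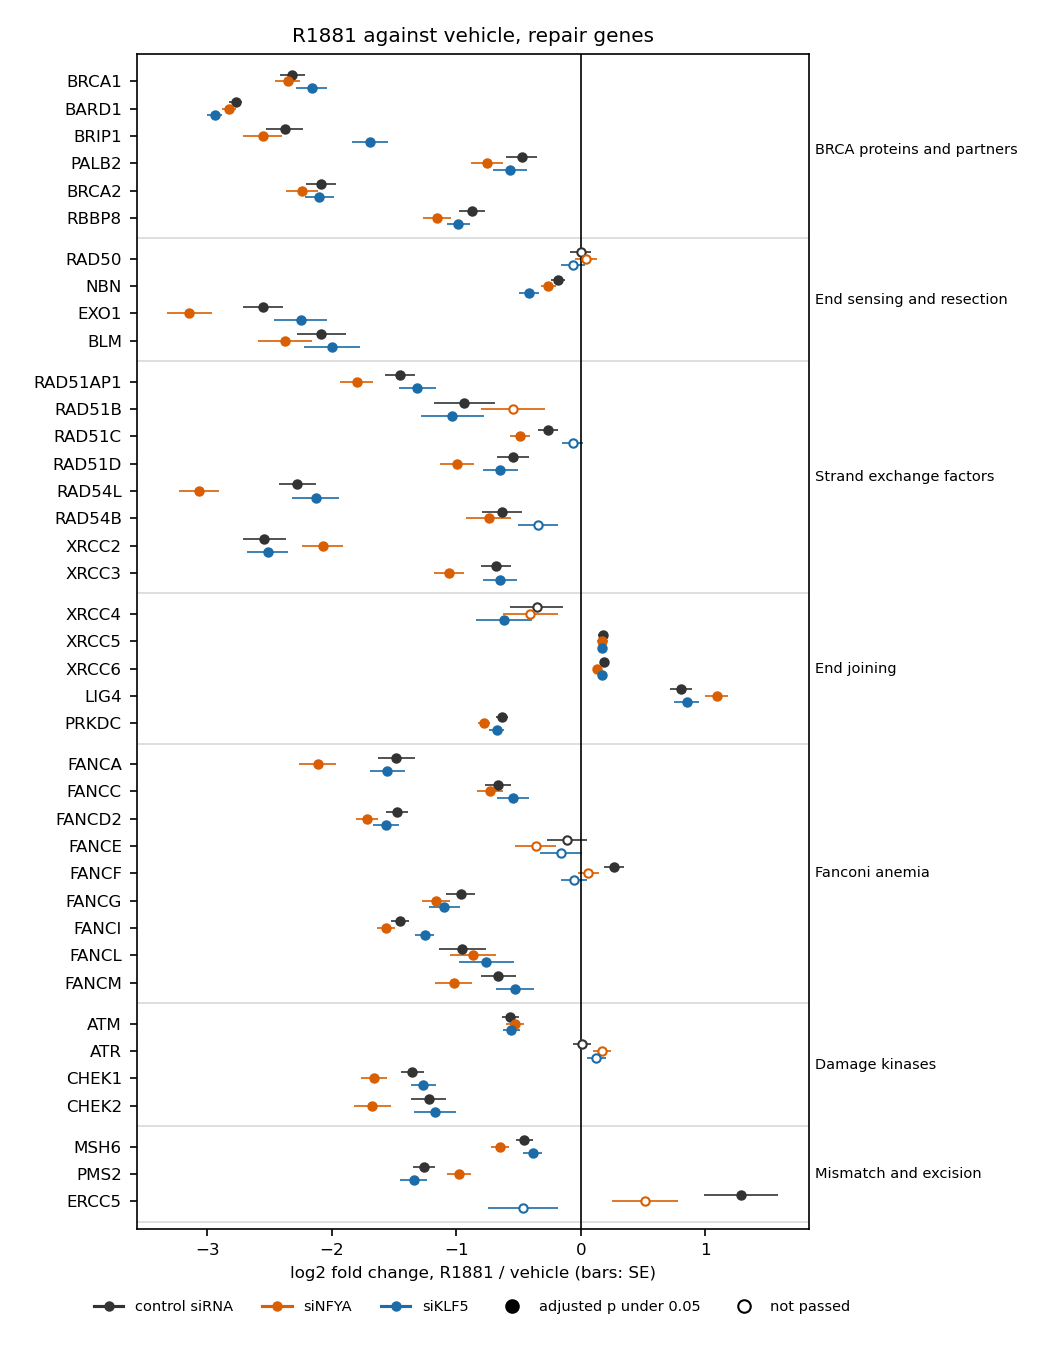
Log2 fold change of R1881 against vehicle for each of the 39 repair genes, under control siRNA (grey), siNFYA (orange) and siKLF5 (blue), with SE bars; filled points passed at adjusted p under 0.05. BARD1, BRCA1, BRIP1, BRCA2, EXO1, BLM, RAD54L and XRCC2 lie farthest to the left, down to −3.14, and XRCC5, XRCC6, LIG4 and, close to 0, ATR lie to the right of 0 under every siRNA.

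Few of these genes differed between siNFYA and control siRNA. In vehicle, 4 of the 39 were higher than with control siRNA and 2 lower (all genes, 6.67% higher and 6.79% lower). XRCC3, a strand exchange factor, was at 34.5, 28.8 and 31.3 CPM with siNFYA and at 22.6, 25.9 and 25.3 CPM with control siRNA (log2 0.36, SE 0.106, adjusted p = 0.0233). FANCA was at 23.4, 22.4 and 20.3 CPM against 18.3, 15.9 and 17.3 CPM (log2 0.37, SE 0.112, adjusted p = 0.0273). FANCG, which sits with it in the core complex, was at 37.3, 37.4 and 40.4 CPM against 31.6, 28.7 and 32.9 CPM (log2 0.31, SE 0.0962, adjusted p = 0.0315). For these 3 genes every siNFYA library was above every control library. Over the 39, libraries did not overlap for 12, against 30.7% of all genes. ERCC5 was at 8.75, 6.66 and 3.59 CPM against 3.57, 2.44 and 3.26 CPM (log2 1.07, SE 0.306, adjusted p = 0.0205), with the reservation on its readthrough gene given above. PMS2 was lower, at 66.3, 71.9 and 67.0 CPM against 96.5, 98.3 and 79.4 CPM (log2 −0.41, SE 0.0772, adjusted p = 0.00089). BARD1 was slightly lower, at 274, 281 and 295 CPM against 314, 328 and 315 CPM (log2 −0.16, SE 0.0399, adjusted p = 0.00745). The median log2 change of the 39 genes was 0.07 and that of all genes 0.00. Of the 151 other repair genes, 15 were higher and 2 lower, the largest changes being those of SLX1A (log2 1.14), a structure-specific nuclease with a nearly identical copy, and NEIL1 (0.88), a glycosylase. Several calls rest on single libraries: without siNFYA vehicle replicate 1 none of the 4 higher genes passed, and without control vehicle replicate 2 or siNFYA vehicle replicate 2 only 1 did. Without siNFYA vehicle replicate 3, which stood apart, 3 were higher and 3 lower. By gene, XRCC3 lost its call without control or siNFYA vehicle replicate 1 (adjusted p up to 0.134), and FANCA without control replicate 2 or 3 or siNFYA replicate 1 or 2 (up to 0.126). FANCG lost it in every such test but the one without control replicate 3 (up to 0.155), and ERCC5 without control replicate 2 or siNFYA replicate 1 or 2 (up to 0.17). BARD1 lost it without control replicate 2 or siNFYA replicate 1 (up to 0.0517), and PMS2 passed in all 6. With DESeq2, XRCC3, FANCA and FANCG did not pass (adjusted p of 0.138 to 0.255), and with limma none of the 6 genes did (adjusted p of 0.0888 to 0.883). Mitochondrially encoded transcripts took 2.60–3.00% of counts in siNFYA vehicle libraries against 1.77–2.07% in control vehicle, and retained-intron transcripts 2.65–3.05% against 2.15–2.23%; their part in these differences was not tested.

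Since NF-Y binds CCAAT, the promoters of the 6 genes that passed with siNFYA in vehicle are shown, as the 250 bases before the RefSeq start site (GRCh38.p14), read along the gene's strand. Capitals mark CCAAT, or ATTGG where it lies on the other strand.
XRCC3, chr14:103715452-103715701, minus strand: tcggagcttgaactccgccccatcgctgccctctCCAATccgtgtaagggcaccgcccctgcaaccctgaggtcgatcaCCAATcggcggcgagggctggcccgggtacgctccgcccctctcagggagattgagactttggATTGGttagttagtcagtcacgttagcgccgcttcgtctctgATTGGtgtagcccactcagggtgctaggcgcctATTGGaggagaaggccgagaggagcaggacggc
FANCA, chr16:89816648-89816897, minus strand: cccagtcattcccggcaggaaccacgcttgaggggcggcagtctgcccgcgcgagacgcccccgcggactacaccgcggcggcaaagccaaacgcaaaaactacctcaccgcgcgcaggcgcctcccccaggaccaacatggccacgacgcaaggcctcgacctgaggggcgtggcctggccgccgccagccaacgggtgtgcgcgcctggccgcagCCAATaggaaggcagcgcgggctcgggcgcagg
PMS2, chr7:6009107-6009356, minus strand: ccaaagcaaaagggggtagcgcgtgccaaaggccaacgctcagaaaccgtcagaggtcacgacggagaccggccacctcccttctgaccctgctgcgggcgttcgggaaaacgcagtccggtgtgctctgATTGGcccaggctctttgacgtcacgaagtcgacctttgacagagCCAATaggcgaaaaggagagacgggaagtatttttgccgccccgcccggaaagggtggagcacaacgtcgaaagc
FANCG, chr9:35079943-35080192, minus strand: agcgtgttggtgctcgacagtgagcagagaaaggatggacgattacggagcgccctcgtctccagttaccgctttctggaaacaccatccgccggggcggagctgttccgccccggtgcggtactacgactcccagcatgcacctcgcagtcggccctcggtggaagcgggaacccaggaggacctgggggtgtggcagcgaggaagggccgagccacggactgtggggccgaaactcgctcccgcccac
BARD1, chr2:214809684-214809933, minus strand: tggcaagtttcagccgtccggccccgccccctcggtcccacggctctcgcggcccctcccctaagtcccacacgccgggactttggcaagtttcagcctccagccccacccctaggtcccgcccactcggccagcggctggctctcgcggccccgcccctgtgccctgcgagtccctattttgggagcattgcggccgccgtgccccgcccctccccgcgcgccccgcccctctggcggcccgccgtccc
ERCC5, chr13:102845782-102846031, plus strand: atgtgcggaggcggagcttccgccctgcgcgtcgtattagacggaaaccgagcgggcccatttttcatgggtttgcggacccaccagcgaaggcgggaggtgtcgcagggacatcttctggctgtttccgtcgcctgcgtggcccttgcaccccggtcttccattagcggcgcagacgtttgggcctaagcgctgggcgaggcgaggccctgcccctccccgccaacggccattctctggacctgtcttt
XRCC3 has 5 such matches, PMS2 2 and FANCA 1, and in BARD1, FANCG and ERCC5 these letters are not in the window. The ERCC5 window precedes the RefSeq start but lies wholly inside the span given above for the gene (chr13:102807146-102876001), not before it. Those of XRCC3, FANCA, PMS2, FANCG and BARD1 also reach into the span of their gene, by a smaller part of their length. Promoters of 34 of the 39 genes were found in the RefSeq table, and 15 of them (44.1%) held CCAAT on either strand, against 33.0% of all 27305 promoters of this length and 35.5% of the 9531 promoters of genes tested. The other 3 motifs were searched on both strands too, and matches of different motifs may overlap. TTTNNCGC, an E2F-type motif, was in 5 (14.7%; all promoters, 5.93%; genes tested, 9.21%). TTTGAA, the cell-cycle homology region motif, was in 3 (8.82%; all promoters, 13.6%; genes tested, 8.15%). GGGCGG, the box bound by SP and KLF proteins, was in 23 (67.6%; all promoters, 42.3%; genes tested, 68.1%). The 15 genes with CCAAT had a median log2 change with siNFYA of 0.05 in vehicle and −0.20 under R1881. The 19 without it had medians of 0.09 and 0.03. The ranges of the 2 sets overlapped widely, from −0.41 to 0.37 and from −0.25 to 1.07 in vehicle. Under R1881 they overlapped too, from −0.56 to 0.09 and from −0.48 to 0.53.

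Under R1881, none of the 39 genes differed between siNFYA and control siRNA in edgeR's quasi-likelihood test (all genes, 5.96% in either direction). NFYA RNA itself was lowered only in part, as given above. By DESeq2 the count was also 0. At an unadjusted p under 0.05 there were 6 of the 39 with edgeR, 3 with DESeq2, and 3 with edgeR without control R1881 replicate 3. How many of all genes reached that threshold is not given here, so no excess can be read from these counts. The median log2 difference was −0.07, with 26 of 39 below 0 (all genes, median −0.02 and 54.5% below 0). Of the reference lists, 26 of 34 replication genes and 18 of 20 G2/M genes were below 0. Among the 39, BARD1 came nearest to passing, at 42.1, 38.9 and 38.9 CPM against 50.6, 45.9 and 43.7 CPM (log2 −0.22, SE 0.0771, adjusted p = 0.0994). Of the 4 genes that were higher in vehicle, XRCC3 and FANCA stood at log2 −0.02 (SE 0.141) and −0.26 (SE 0.197) under R1881, and FANCG and ERCC5 at 0.11 (SE 0.133) and 0.30 (SE 0.257). The test of whether siNFYA altered the R1881 change itself passed for none of the 39 genes either (all genes, 0.722%). It was 0 by DESeq2 too. The share of all genes at an unadjusted p under 0.05 is again not given, so such counts cannot show an excess. That threshold was reached by 9 of the 39 genes with edgeR, 2 with DESeq2 and 2 with limma. Leaving out 1 library, edgeR gave 2 to 10, the lowest without control R1881 replicate 3; it gave 4 without control vehicle replicate 3 or siNFYA R1881 replicate 3, and 5 without siNFYA vehicle replicate 1. The interaction was below 0, meaning a larger fall or smaller rise with siNFYA, for 31 of the 39 genes, with a median of −0.18. Of all genes tested, 53.6% were below 0. So were 31 of the 34 replication genes (median −0.26) and 19 of the 20 G2/M genes (median −0.20) of the reference lists. Among the 151 other repair genes, 92 were below 0 (median −0.07). Without siNFYA vehicle replicate 3, which stood apart, the median was −0.11 for the 39 genes and 0.016 for all genes. With it, these medians were −0.18 and −0.015. Leaving out any other single library gave −0.22 to −0.15 for the 39. RAD54L had the lowest adjusted p: its R1881 change was −3.07 with siNFYA and −2.28 with control siRNA, an interaction of −0.79 (SE 0.257, adjusted p = 0.17). FANCA followed at −0.63 (SE 0.227, adjusted p = 0.221). The 2 siNFYA comparisons and this interaction use the same libraries and are not independent of each other.

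**Figure D5:**
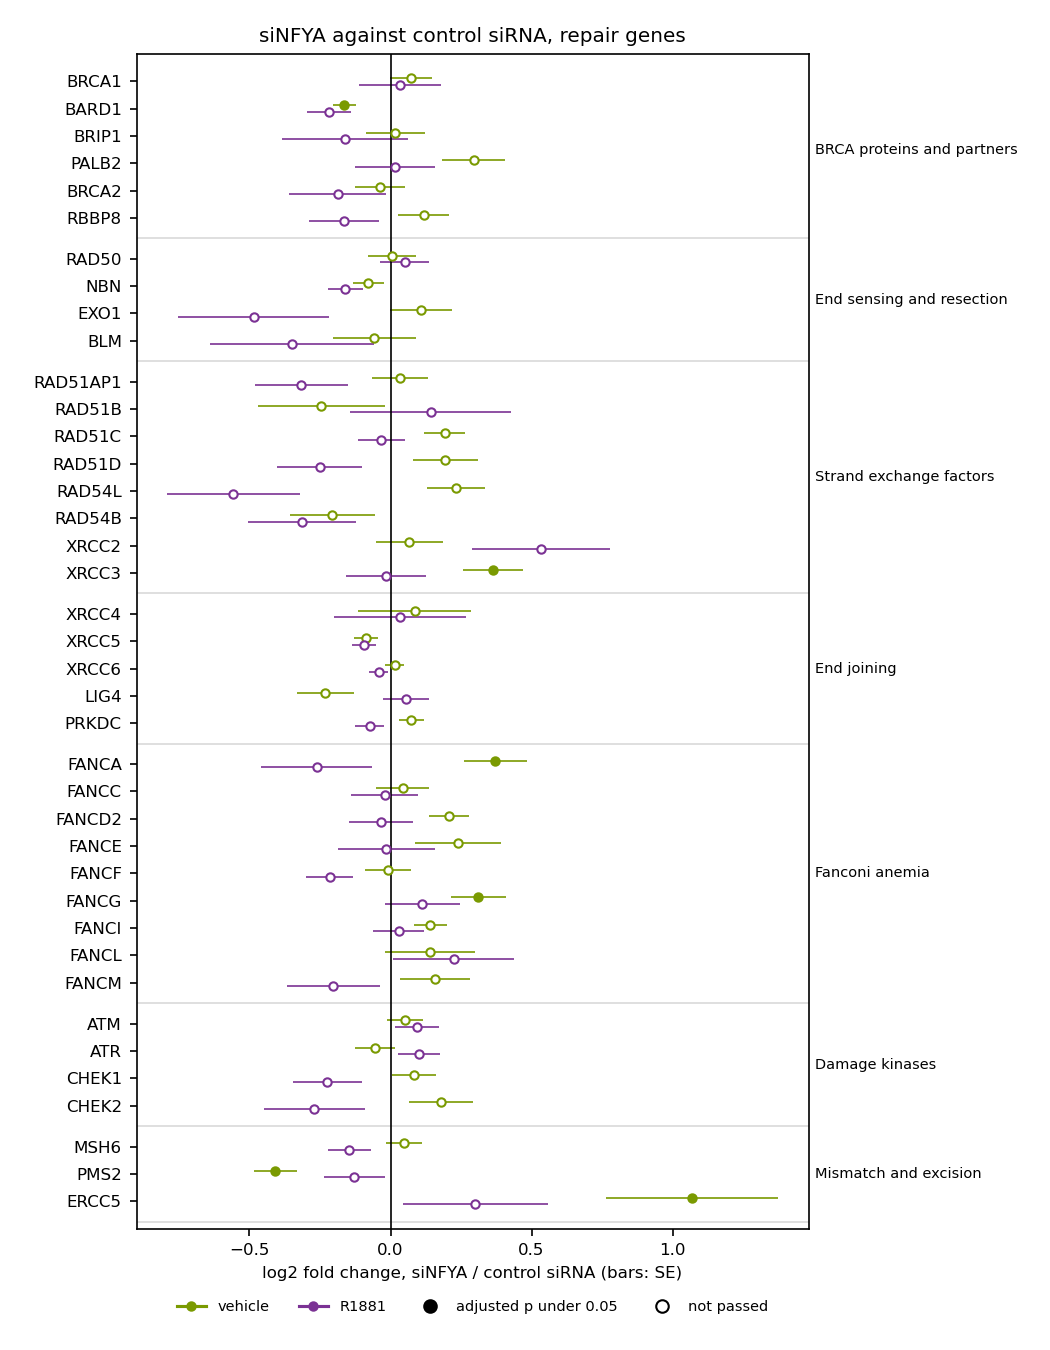
Log2 fold change of siNFYA against control siRNA for each of the 39 repair genes, in vehicle (green) and under R1881 (purple), with SE bars; filled points passed at adjusted p under 0.05. In vehicle XRCC3, FANCA, FANCG and ERCC5 lie to the right and PMS2 and BARD1 to the left, and under R1881 no point is filled.

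Between siKLF5 and control siRNA, 1 of the 39 genes differed in each condition. KLF5 itself had not passed as lower in vehicle, as given above. In vehicle, ERCC5 was at 8.49 and 8.64 CPM with siKLF5 and at 3.57, 2.44 and 3.26 CPM with control siRNA (log2 1.47, SE 0.302, adjusted p = 0.0142; all genes higher, 0.77%). BIVM-ERCC5 was at 25.9 and 33.6 CPM against 34.2, 37.8 and 33.6 CPM and did not pass. The ERCC5 call was lost without control vehicle replicate 2 or 3 or siKLF5 vehicle replicate 3, at adjusted p of 0.0528 to 0.0945. Under R1881, FANCF was at 32.4, 37.5 and 37.5 CPM with siKLF5 and at 46.2, 43.1 and 52.5 CPM with control siRNA (log2 −0.39, SE 0.0958, adjusted p = 0.0426; all genes lower, 0.55%). Its call was lost in 5 of the 6 tests that left out 1 of these libraries, at adjusted p of 0.0812 to 0.214, and was kept without control R1881 replicate 2. The medians over the 39 genes were 0.00 in vehicle and 0.02 under R1881. None of the 39 passed the test of whether siKLF5 altered the R1881 change (all genes, 0.0157%), by edgeR or by DESeq2. At an unadjusted p under 0.05 there were 4 of the 39 with edgeR, 2 with DESeq2, and 2 with edgeR without siKLF5 R1881 replicate 1. No share of all genes at that threshold is given here, so these counts cannot show an excess. The control libraries in these comparisons are those used for siNFYA, and siKLF5 libraries had 2.20–2.96% mitochondrially encoded transcripts, whose part was not tested.

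Per transcript length, the Ku genes were the most abundant of the 39. In control vehicle, XRCC6 had 365 ± 8.27 TPM (transcripts per 1000000; SD, n = 3) and XRCC5 221 ± 3.59 TPM, followed by BARD1 at 151 ± 16.8 TPM and RAD51C at 109 ± 10.3 TPM. BRCA1 had 26.8 ± 1.27 TPM and ATM 18.8 ± 2.35 TPM. The lowest were BLM (6.32 ± 1.04 TPM), BRCA2 (6.11 ± 2.52 TPM) and FANCM (5.14 ± 1.21 TPM), which did not differ beyond their spread. With R1881, XRCC6 and XRCC5 stayed the most abundant, at 370.2 ± 5.24 TPM and 278 ± 6.28 TPM, and BARD1 went from rank 3 to rank 9, at 17.9 ± 4.22 TPM. These gene values are sums over transcripts and depend on how reads were assigned to them. For BARD1, the full-length coding transcript ENST00000260947 held 74.2% ± 0.797 of the gene's reads with vehicle and 80.1% ± 6.83 with R1881 in control cells. For BRCA1, the coding transcript ENST00000357654 held 85.4% ± 5.47 and 48.1% ± 15.5. That lower share rests on 17.5 to 40.7 estimated counts per library, and with R1881 the share was 67.7% ± 8.08 in siNFYA and 77.2% ± 16.2 in siKLF5 cells. For XRCC2, the processed transcript ENST00000495707 held more of the counts than the coding ENST00000359321, at 60.3% ± 10.4 against 39.7% ± 10.4 in control vehicle. For RAD50, a transcript annotated for nonsense-mediated decay, ENST00000533482, held 50.8% ± 6.54 in control vehicle and 62.9% ± 15.6 in control R1881 libraries, and the coding ENST00000378823 held 32.6% ± 9.44 and 18.6% ± 16.2. No test was run on these shares.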

How the data were processed

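RNA was measured by stranded RNA sequencing in 17 libraries of LNCaP cells, grouped by siRNA and treatment from their labels. FastQC, Trimmomatic, kallisto, DESeq2 and a GRCh38 genome are listed in the submitters' processing notes, with versions not given in the sources used here. Estimated counts per gene were deposited by the authors, in a table for control and siNFYA (12 libraries) and another for control and siKLF5 (11 libraries), in which the control columns are the same. They also deposited tables that join, per gene and transcript, an estimated count, a TPM value and a further number of no stated meaning that was not used. Genes were located by identifier in GENCODE v29. The members and gene lists were chosen with earlier results of these data known.

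Estimated counts were rounded and scaled by TMM. Genes passing filterByExpr entered edgeR 4.0.16 (R 4.3.3), with the quasi-likelihood test, in a separate fit per table (12601 and 12733 genes) with 9 contrasts, all groups of a table sharing the estimate of spread. Benjamini-Hochberg adjustment ran over all genes of the fit, and genes passed at adjusted p under 0.05. The procedure was tried on simulated counts in which few genes changed. With R1881 many genes did, so that trial says nothing about the scaling in those comparisons. CPM were scaled over all 17 libraries, so they can differ slightly from the fitted folds. Full values are given for the gene that led each group with R1881, for genes that went against their group and for those that passed with a knockdown, and of other genes for at most 3 a list plus NFYA and KLF5; values of some genes are not reported here. Values per library are also given for BRCA1, BRIP1, RAD50, XRCC4, XRCC5, XRCC6, FANCE, ATM and ATR, which that selection does not cover. BIVM-ERCC5 was added after values were seen. Alternatives were library totals, no filter, a joint fit of all libraries, the compared groups alone, DESeq2 1.42.0, limma 3.58.1 on log2(TPM + 1), and leaving out each library.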

Additional observations from a re-analysis of the deposited data

Results flagged for a closer look

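In 2 genes outside the 39, both from the lists of other repair genes, the change with R1881 differed between siNFYA and control siRNA cells by the interaction test. CENPX, a DNA-binding subunit that works with FANCM, rose with R1881 by 1.09 on the log2 scale in control cells and by 0.73 with siNFYA, an interaction of −0.36 (SE 0.0861, edgeR's quasi-likelihood test, adjusted p = 0.0476). SLX1A, a nuclease subunit with a nearly identical copy that makes its counts uncertain, rose by 1.57 in control cells, and its change with siNFYA was −0.57 and did not pass (interaction −2.14, SE 0.503, adjusted p = 0.0416).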

How the results depend on the processing

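No paired analysis was possible because no number in the labels is shared between groups. Of the 35 calls with R1881 in control cells, 28 held under every alternative, as did 29 of 32 with siNFYA and 24 of 32 with siKLF5; of the 6 siNFYA calls in vehicle and the single siKLF5 calls in vehicle and under R1881, none did. With library totals, the median of all genes with R1881 moved to −0.25 in control cells, and the share of higher among called genes from 51.1% to 28.2%. The count of higher repair genes then went from 5 to 2 in control cells and from 3 to 1 with siNFYA and with siKLF5, and with limma on log2(TPM + 1) from 5 to 2 in control cells. XRCC5 and XRCC6 reversed with library totals, to −0.06 and −0.05 in control cells, −0.05 and −0.09 with siNFYA (XRCC6 then passing as lower), and −0.06 and −0.06 with siKLF5. With limma XRCC6 reversed to −0.05 with siNFYA and −0.02 with siKLF5. The remaining reversals were of changes that had not passed. ATR went to −0.23 (control, where it then passed as lower), −0.06 (siNFYA) and −0.11 (siKLF5) with library totals, to −0.01 in control cells with the compared groups alone, 0.00 with DESeq2 and 0.00 with limma, and to −0.01 with siNFYA and limma. RAD50 went to 0.00 without the filter in control cells and, with siNFYA, to −0.18 with library totals and −0.08 with limma. FANCF with siNFYA went to −0.16 with library totals and −0.11 with limma, and ERCC5 with siNFYA to −0.30 with limma. Leaving out 1 library at a time, RAD50 ranged from −0.08 to 0.13 in control cells and from −0.01 to 0.10 with siNFYA, ATR from −0.02 to 0.06 and FANCE from −0.18 to 0.01 in control cells, and FANCF from −0.18 to 0.08 with siKLF5.

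With siNFYA in vehicle, the count of higher genes was 1 with DESeq2 and 0 with limma on log2(TPM + 1), and the count of lower genes 0 with limma. Without 1 library these counts ranged from 0 to 3 and from 1 to 3. With siKLF5, the higher gene in vehicle was lost with limma, leaving 0, and without 1 library the count ranged from 0 to 1. The lower gene under R1881 was lost with DESeq2 (0) and limma (0), and without 1 library the count again ranged from 0 to 1. Without the filter, 1 gene passed as lower in the siKLF5 interaction, against 0. The causes of these differences were not tested. ERCC5 had 16.8 to 64.2 estimated counts per library, and its SE with R1881 in control cells was 0.298; whether depth set that error was not tested.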
